A study of Mus musculus with 9 samples.

Results

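The 48 genes described here encode the machinery of mitosis, the division of a cell's duplicated chromosomes into daughter cells. They were chosen by name from general knowledge of the process, but with earlier results of these data known. All 48 were matched by symbol among the 19369 gene identifiers listed over the 9 samples. All samples were pools of tissue from wild-type C57BL/6 mouse embryos, with 3 biological replicates at each of 3 stages and no treatment or transgene. In the E10.5 samples (E, embryonic day) the tissue was periocular neural crest (pNC), the migratory mesenchyme around the early eye, freed with dispase from the ectoderm, lens vesicle and optic cup. At E14.5 it was the cornea freed from the surrounding mesenchyme, with its epithelium and pNC-derived mesenchyme still differentiating. At E16.5 it was the cornea cut at its rim, the limbus, after epithelium, stroma and endothelium had formed. Tissue and stage therefore changed together between E10.5 and E14.5 and cannot be told apart in that step.

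To divide, a cell raises the activity of the kinase Cdk1 with its cyclins, condenses its chromosomes, and attaches each one through its kinetochores to the microtubules of the spindle. The spindle checkpoint holds back the anaphase-promoting complex (APC/C) until every chromosome is attached. The complex then marks securin and cyclin B for destruction, the sister chromatids part, and the cell is cut between them by a contractile ring. Most of these genes are transcribed mainly in the later part of the cell cycle, so their RNA marks cycling cells. In RNA from whole tissue, fewer dividing cells and less RNA in each dividing cell cannot be told apart.

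All 48 genes were listed in every sample, and all of them passed the filter on low counts together with 14771 genes in all. Levels are given as FPKM, the authors' value scaled to transcript length and library total, which can be compared between genes. Changes are log2 fold changes fitted by edgeR to the expected counts, each with its standard error (SE). A call needed a p below 0.05 after Benjamini-Hochberg adjustment over all genes tested, and a log2 fold change of 1 or more in size.

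The promoters of these genes are shown before their values, because short motifs recur in them near the start of transcription. The motifs are known ones of late cell cycle genes and were chosen with results known, so their shares are a description. Promoters of genes of late cell cycle phases often hold a hexamer known as the cell cycle genes homology region (CHR), read TTTGAA or TTTAAA, which the MuvB complex binds, and the box CCAAT, which the factor NF-Y binds. RefSeq windows of 300 bases, from 250 before to 50 after the start, were given for 40 of the 48 genes in GRCm38.p6, as 42 windows. Windows for *Aurkb*, *Ccna2*, *Cdc25c*, *Incenp*, *Kif20a*, *Smc4*, *Spc24* and *Tpx2* were not analysed here. For 2 genes, *Kif2c* and *Pttg1*, the only window began more than 1000 bases inside the annotated gene. The sequences below run 5′ to 3′ along each gene, from 120 bases before to 30 after the start, and capitals mark CCAAT, its reverse complement ATTGG and the CHR hexamers. *Cdk1* and *Ccnb2* stand for entry into mitosis, *Plk1* for a promoter with the TTTAAA form, *Cdc20* for the exit from mitosis, *Cdca8* for the strongest fall among the passenger genes, and *Bub1* for the strongest fall of all without a hexamer.
Cdk1 (chr10:69352883-69353032, minus strand): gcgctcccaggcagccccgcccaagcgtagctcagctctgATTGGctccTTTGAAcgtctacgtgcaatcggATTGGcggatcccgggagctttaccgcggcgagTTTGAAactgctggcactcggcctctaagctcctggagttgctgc
Ccnb2 (chr9:70421525-70421674, minus strand): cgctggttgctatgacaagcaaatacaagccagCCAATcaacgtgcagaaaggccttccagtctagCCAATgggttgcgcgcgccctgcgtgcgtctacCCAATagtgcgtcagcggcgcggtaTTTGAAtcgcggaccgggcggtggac
Plk1 (chr7:122159315-122159464, plus strand): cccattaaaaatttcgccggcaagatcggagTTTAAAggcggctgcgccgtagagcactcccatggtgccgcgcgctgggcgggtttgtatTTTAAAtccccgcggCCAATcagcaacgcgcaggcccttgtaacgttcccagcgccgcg
Cdc20 (chr4:118437314-118437463, minus strand): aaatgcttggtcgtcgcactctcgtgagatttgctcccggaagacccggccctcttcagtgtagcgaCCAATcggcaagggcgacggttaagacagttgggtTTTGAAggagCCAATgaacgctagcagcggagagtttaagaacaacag
Cdca8 (chr4:124936888-124937037, minus strand): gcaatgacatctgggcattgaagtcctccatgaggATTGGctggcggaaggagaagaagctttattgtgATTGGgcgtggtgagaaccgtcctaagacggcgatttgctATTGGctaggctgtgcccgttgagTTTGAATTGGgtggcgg
Bub1 (chr2:127831830-127831979, minus strand): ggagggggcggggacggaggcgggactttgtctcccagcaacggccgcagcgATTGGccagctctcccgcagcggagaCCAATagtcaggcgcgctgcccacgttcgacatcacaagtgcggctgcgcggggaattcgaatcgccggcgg

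TTTGAA, on either strand, was found in 31 of the 42 windows (73.8%), against 17.9% of 32851 windows of all genes. TTTAAA, which reads the same on both strands, was in 9 windows (21.4%), against 13.2% of all. CCAAT, on either strand, was in 29 windows (69.0%), against 37.4%. Matches lay close to the start: in the 100 bases around it, TTTGAA was found in 66.7% of the members' windows and 4.94% of all windows. In *Cdk1* the hexamers began 71 and 15 bases before the start, and in *Ccnb2* one began at base 5 of the transcript, downstream of CCAAT boxes 87, 54 and 21 bases before the start. Both a hexamer and a CCAAT box were in 28 of the 42 windows (66.7%), against 10.7% of all windows. Among all matches in the members' windows, 2 pairs overlapped, 1 of them the hexamer and the last box of *Cdca8*. The 32 genes with either hexamer had a median log2 fold change from E10.5 to E16.5 of -2.05 and the 8 without one -1.91. The ranges were -2.82 to -1.19 and -3.00 to -0.39. The ends at -2.82 and -0.39 are *Kif2c* and *Pttg1*, whose windows began inside the gene. Apart from these 2 genes the ranges ran from -2.67 (*Cdca8*) to -1.19 and from -3.00 to -1.71 (*Nusap1*). Falls were found in both groups, and a part of the hexamer in them was not tested. A match of letters is no test of binding.

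**Figure D1:**
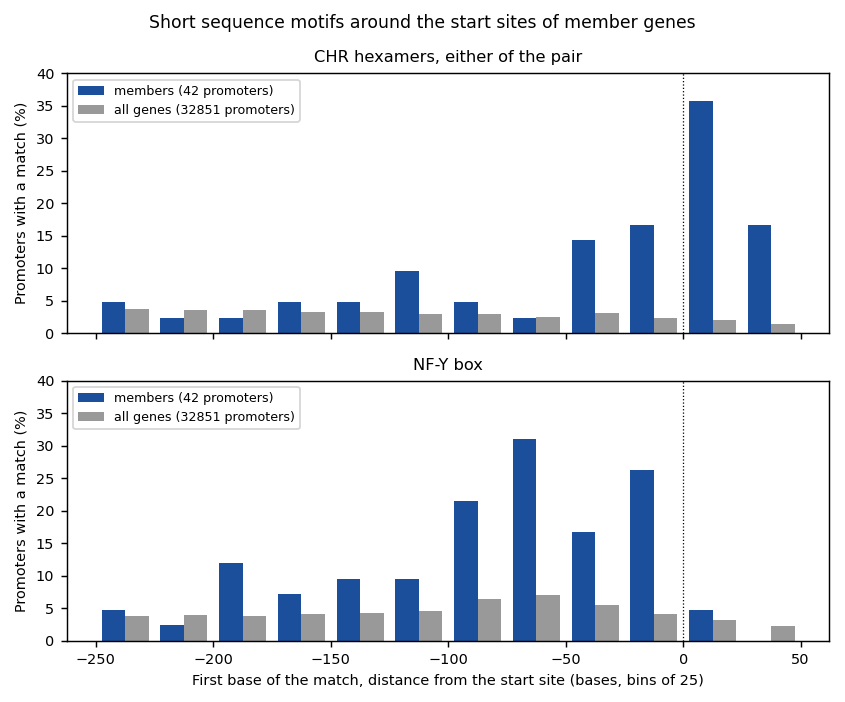
Share of promoter windows (%) with a CHR hexamer (upper panel) or an NF-Y box (lower panel) that begins in each bin of 25 bases, by distance from the start site in bases. Blue bars are the 42 windows of member genes and grey bars the 32851 windows of all genes; hexamers of the members peak in the 25 bases just after the start (35.7% of windows, against 1.99%).

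At E10.5 the mean FPKM of the 48 genes ranged from 9.64 to 170 with a median of 49.0. At E14.5 the range was 6.41 to 90.4 with a median of 28, and at E16.5 it was 2.38 to 41.8 with a median of 10.7. *Ube2c*, an enzyme that works with the APC/C, was the highest at all 3 stages, and *Kif18a*, a kinesin that dampens chromosome movements, the lowest. The order of levels changed little: Spearman's rho between the mean FPKM at E10.5 and at E16.5 was 0.855 over the 48 genes, which come from the same libraries. All 48 genes had a mean of at least 5 FPKM at E10.5 and E14.5, and 40 of them still had at E16.5.

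Between E10.5 and E16.5, 47 of the 48 genes were called lower and 0 higher, where 15.4% of all genes tested were called lower and 19.4% higher. The median log2 fold change was -2.01, a 4.01-fold lower level, with a range of -3.00 to -0.39, while the median over all genes tested was 0.00. Expressed as a share, a median of 24.9% of the E10.5 level was left at E16.5. In all 48 genes every E16.5 sample was below every E10.5 sample, as was so for 38% of all genes tested. Without the fold minimum all 48 genes were lower and 0 higher, beside 34.7% and 35.2% of all genes. The exception to the call with the minimum was *Pttg1*.

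At E14.5 the fall was partial. Against E10.5, 10 genes were called lower and 0 higher, with 7.97% of all genes tested called lower and 13.6% higher. Without the fold minimum, 46 genes were lower and 0 higher, beside 27.5% and 28.9% of all genes. The remaining pair, *Nusap1* and *Anln*, had adjusted p values of 0.0563 and 0.0804. The median log2 fold change was -0.80, against 0.01 over all genes tested, and a median of 57.5% of the E10.5 level was left. In all 48 genes the E14.5 samples did not overlap with the E10.5 samples, which was so, in the same direction, for 30.6% of all genes tested.

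From E14.5 to E16.5 42 genes were called lower and 0 higher, where 5.47% of all genes tested were called lower and 6.26% higher. Without the fold minimum 47 genes were lower and 0 higher, beside 17.5% of all genes in either direction. The median log2 fold change of this step was -1.23. *Anln*, *Ube2c*, *Racgap1*, *Smc4* and *Kif23* passed the adjusted p below the fold minimum, and *Pttg1* did not pass. In 47 of the 48 genes the E16.5 samples lay wholly below the E14.5 samples, as in 23.5% of all genes tested, and in 0 genes wholly above them, as in 24.4%.

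**Figure D2:**
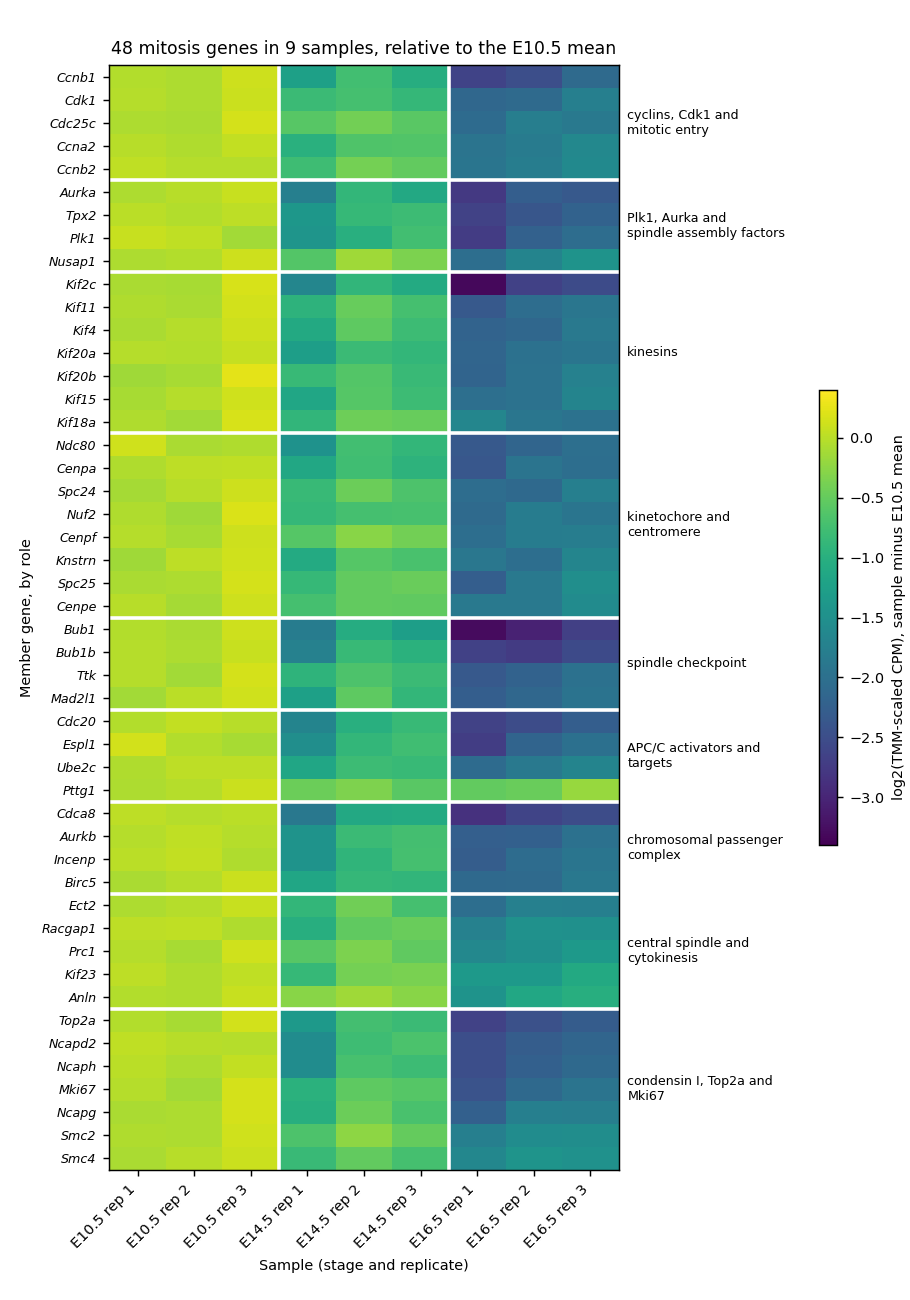
Level of each of the 48 member genes (rows, by role) in each of the 9 samples (columns), as log2 of counts scaled to library size (TMM-scaled CPM) minus the mean of the 3 E10.5 samples; darker is lower. The median over genes is -1.05, -0.63 and -0.73 in the 3 E14.5 samples and -2.18, -2.03 and -1.89 in the 3 E16.5 samples, and the row of *Pttg1* stays pale.

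The samples within a stage did not fall equally. The median over the 48 genes of the log2 difference from the E10.5 mean was -1.05 in E14.5 replicate 1, -0.63 in replicate 2 and -0.73 in replicate 3. Replicate 1 was the lowest E14.5 sample for 45 of the 48 genes, while it was the lowest for 41.2% of all genes tested. Its distance below the mean of the other two was widest for *Ncapd2* (1.78-fold), *Bub1b* (1.76-fold) and *Ncaph* (1.74-fold) and near 0 on the log2 scale for *Cdk1* (-0.03) and *Pttg1* (0.00). At E16.5, replicate 1 was the lowest for 44 genes, beside 37.6% of all genes.

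Other genes also set E14.5 replicate 1 apart. The summed FPKM of the 7 corneal epithelium markers was 1988 in it and 570.3 and 693.1 in replicates 2 and 3, and the keratin *Krt12*, a marker of mature corneal epithelium, stood at 101.52, 0.62 and 2.06. The 5 corneal stroma markers summed to 5628, 2164 and 3167, and the 5 leukocyte markers to 23.77, 41.73 and 60.1. The leukocyte markers parted, so their sum is no measure of the amount of leukocytes. *Mpo* and *Elane* were lowest in replicate 1, with *Elane* at 0.76, 7.34 and 11.72 FPKM. *Ptprc*, *Cd68* and *Csf1r* were highest in replicate 1, with *Csf1r* at 12.86, 11.82 and 12.43 FPKM. In the E10.5 samples the epithelium sum was 24.59 to 38.65 and the stroma sum 103.9 to 159.9, and in the E16.5 samples they were 5084 to 7386 and 8742 to 10620, so replicate 1 lay between the other E14.5 samples and E16.5 in both. Markers of other cell types changed with stage too. The 8 red blood cell markers summed, by stage in order, to 5199 to 8183, 2535 to 4416 and 1231 to 2666. These markers moved in different directions, so their sum is no measure of the amount of red cells. The globin *Hbb-y* fell, with 1869.81 to 2893.19, then 117.27 to 550.41, then 1.74 to 4.01 FPKM, and *Hba-x* and *Hbb-bh1* fell likewise. *Hbb-bs* was higher in the cornea, with 15.16 to 31.09, then 436.88 to 1460.28, then 437.68 to 910.45 FPKM. *Hba-a1* overlapped between the stages. The 4 vascular endothelium markers summed to 68.48 to 122.1, then 41.15 to 76.56, then 22.51 to 34.3. These markers parted as well. *Kdr* overlapped between the stages, with 18.28 to 32.48, then 21.76 to 38.92, then 21.7 to 29.28 FPKM. *Cdh5*, *Pecam1* and *Tie1* fell, to at most 1.85 FPKM in the E16.5 samples. The 3 skeletal muscle precursor markers summed to 7.21 to 7.44 at E10.5 and were missing from the tables of all 6 corneal samples, while the 4 lens markers stayed at or under 2.48 in all 9 samples. The part of these cell types in the falls of the mitosis genes was not tested. *Alx1*, a marker of pNC, had 43.43 to 62.45 FPKM in the E10.5 samples and at most 1.46 in the corneal samples.

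Without E14.5 replicate 1, the number of genes called lower at E14.5 dropped from 10 to 2, *Bub1* and *Cdca8*, and the median log2 fold change moved to -0.72. Without replicate 2 or replicate 3 it was 20 or 17. The 46 genes lower without the fold minimum stayed 46 in number when replicate 1 was left out. The size of the fall at E14.5 thus rests on which samples are used, and its direction was the same in all 3 samples for all 48 genes.

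Base composition moved with the members' values as well. Spearman's rho between the GC content of the transcript and the log2 fold change at E14.5 was -0.481 over the 48 genes and 0.004 over 13820 genes tested. For the change from E10.5 to E16.5 it was -0.398 and 0.058, and from E14.5 to E16.5 -0.067 and 0.147. For E14.5 replicate 1 against the mean of replicates 2 and 3 it was -0.441 and -0.038. Between other replicates of E14.5 and of E10.5 it was also seen over all genes. It was -0.567 and -0.383 for E14.5 replicate 2 minus replicate 3. For E10.5 replicate 3 against the mean of replicates 1 and 2 it was -0.652 and -0.373. For E16.5 replicate 1 against the mean of replicates 2 and 3 it was -0.101 and -0.039. With offsets smoothed on GC content the counts of genes called lower were 10 at E14.5 and 47 at E16.5 against E10.5, and 38 from E14.5 to E16.5.

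**Figure D3:**
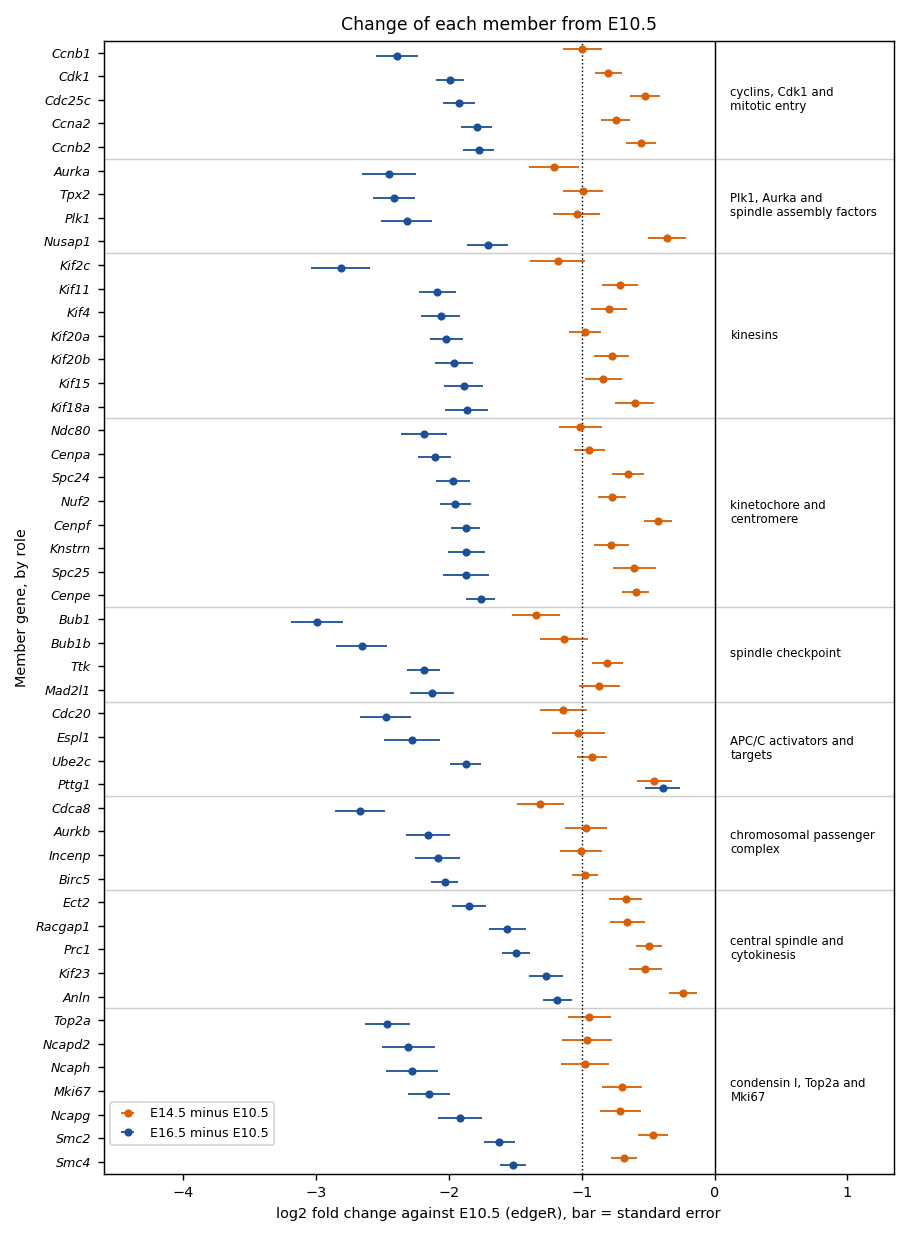
Log2 fold change against E10.5 of each member gene, at E14.5 (orange) and E16.5 (blue), with bars for the standard error from edgeR; genes are grouped by role and the dotted line marks the fold minimum of the call. All 48 genes lie below 0 at both stages, and all except *Pttg1* are farther from 0 at E16.5 than at E14.5.

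The 5 genes of entry into mitosis were all called lower at E16.5, with a median log2 fold change of -1.92. *Cdk1* (gene 12534, chr10:69335146-69352912 in GRCm38) encodes the kinase that drives entry. Its FPKM was 56.3, 55.07 and 60.85 in the E10.5 samples, 33.17, 35.83 and 30.99 in the E14.5 samples and 11.88, 12.03 and 15.23 in those of E16.5. The stages did not overlap, and E14.5 replicate 1 lay between the other two samples of its stage. The log2 fold change was -0.80 (SE 0.10, adjusted p 7.99e-05) by E14.5 and -1.99 (SE 0.11, adjusted p 1.36e-07) by E16.5. *Ccnb1*, the cyclin that activates Cdk1, stood at 92.11, 91.66 and 101.58 FPKM, then 40.84, 58.06 and 45.87, then 13.93, 15 and 20.23, so each stage lay below the one before. Its log2 fold change at E16.5 was -2.39 (SE 0.16, adjusted p 4.41e-07), the largest fall of this group. *Ccna2*, the cyclin of S phase and G2, *Ccnb2* and *Cdc25c*, a phosphatase that activates Cdk1, had log2 fold changes of -1.79, -1.78 and -1.92. Of these, *Ccna2* overlaps *Exosc9* in the annotation. Whether the counting used the strand is not given in the sources used here, so reads of such an overlap, named below for 8 further genes, could stem from either gene.

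*Plk1*, *Aurka*, *Tpx2* and *Nusap1*, which build the spindle, had a median log2 fold change of -2.37 at E16.5, and all 4 were called. *Plk1*, a kinase of spindle poles and kinetochores, stood at 58.87, 57.35 and 50.63 FPKM in the E10.5 samples, at 21.02, 28.48 and 32.35 in the E14.5 samples and at 7.59, 10.49 and 12.07 in those of E16.5. *Aurka*, the kinase of the spindle poles, went from 49.56, 52.51 and 54.83 through 15.67, 29.13 and 23.77 to 6.93, 9.59 and 9.31 FPKM. In both genes replicate 1 was the lowest sample of both corneal stages, and no stage overlapped with another. The log2 fold changes at E16.5 were -2.32 (SE 0.19, adjusted p 1.71e-06) for *Plk1* and -2.45 (SE 0.21, adjusted p 1.94e-06) for *Aurka*. Both were called at E14.5 already, at -1.04 and -1.21. *Tpx2*, which activates Aurka on microtubules, fell by 2.41 on the log2 scale. *Nusap1*, a microtubule-binding protein of the spindle, was at -0.36 at E14.5 (SE 0.14, adjusted p 0.0563) and at -1.71 at E16.5. *Aurka* overlaps *Cstf1* and *Nusap1* overlaps *Oip5* in the annotation.

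All 7 kinesins, motor proteins that move along or take apart microtubules, were called lower at E16.5, with a median of -2.02. *Kif11*, the motor that pushes the spindle poles apart, had 51.07, 50.27 and 57.78 FPKM in the E10.5 samples, 28.03, 38.71 and 31.6 in the E14.5 samples and 9.52, 11.47 and 12.81 in those of E16.5. Its log2 fold change was -0.71 (SE 0.13, adjusted p 0.00115) by E14.5 and -2.09 (SE 0.14, adjusted p 5.09e-07) by E16.5. *Kif2c*, a kinesin that takes microtubules apart at the centromere, had the second largest fall of the 48 genes. It stood at 46.12, 45.91 and 54.32 FPKM, then 15.64, 26.8 and 22.68, then 4.38, 6.79 and 7.55, a log2 fold change of -2.82 (SE 0.22, adjusted p 1.38e-06) at E16.5. In neither gene did the stages overlap. The other kinesins, *Kif4*, *Kif15*, *Kif18a*, *Kif20a* and *Kif20b*, lay between -2.06 and -1.87. *Kif20a* overlaps *Cdc23* and *Brd8* in the annotation, and *Kif18a* overlaps *Mettl15*.

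The 8 genes of the kinetochore and centromere were the most uniform group: their log2 fold changes at E16.5 lay between -2.19 and -1.76, with an SD over genes of 0.14 (48 genes: 0.44), and all 8 were called. *Cenpa*, the histone H3 variant that marks centromeres, stood at 85.26, 90.36 and 90.17 FPKM in the E10.5 samples, at 41.23, 53.2 and 45.32 in the E14.5 samples and at 15.58, 20.46 and 19.51 in those of E16.5. *Ndc80*, the subunit that binds microtubules, stood at 26.9, 23.5 and 23.59, then 9.09, 14.93 and 13.02, then 4.36, 4.84 and 5.43 FPKM. Each stage of both genes lay below the previous one. The log2 fold changes at E16.5 were -2.11 (SE 0.12, adjusted p 2.22e-07) and -2.19 (SE 0.18, adjusted p 1.47e-06). The other members of the Ndc80 complex, *Nuf2*, *Spc24* and *Spc25*, were at -1.95, -1.97 and -1.87, apart by less than 1 SE. *Cenpe*, a kinetochore motor, *Cenpf* and *Knstrn* were at -1.76, -1.87 and -1.87.

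The 4 genes of the spindle checkpoint had the most negative median of the groups at E16.5, -2.42. *Bub1* (gene 12235, chr2:127800197-127831859), a checkpoint kinase at the kinetochore, had the largest fall of the 48 genes: 40.7, 39.75 and 44.74 FPKM in the E10.5 samples, 12.16, 20.59 and 16.95 in the E14.5 samples and 3.85, 4.48 and 5.83 in those of E16.5. Its log2 fold change was -1.35 (SE 0.18, adjusted p 0.000119) by E14.5 and -3.00 (SE 0.20, adjusted p 4.26e-07) by E16.5, when 12.5% of the E10.5 level was left. *Bub1b*, whose product BubR1 inhibits Cdc20, went from 62.57, 61.43 and 67.19 through 19.58, 36.53 and 31.82 to 9.11, 8.43 and 9.8 FPKM, a log2 fold change of -2.66 (SE 0.19, adjusted p 7.94e-07). At E14.5 replicate 1 was far below its partners in this gene, yet all 3 samples were between the stages before and after. *Ttk*, the kinase that starts the checkpoint signal, and *Mad2l1*, which binds Cdc20, were at -2.19 and -2.12.

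In the group of the APC/C and its targets the members parted. *Cdc20*, the activator of the APC/C that the checkpoint holds back, stood at 99.9, 107.09 and 100.97 FPKM in the E10.5 samples, at 32.38, 52.37 and 56.21 in the E14.5 samples and at 14.81, 15.91 and 19.24 in those of E16.5. Its log2 fold change at E16.5 was -2.48 (SE 0.19, adjusted p 1.13e-06). *Espl1*, which encodes separase, the protease that cuts cohesin, was at -2.28, and *Ube2c* at -1.87. *Pttg1* (gene 30939, chr11:43420244-43427463) encodes securin, the inhibitor of separase. It stood at 26.53, 26.35 and 28.25 FPKM in the E10.5 samples, at 20.11, 21.2 and 18.06 in the E14.5 samples and at 17, 17.14 and 20.37 in those of E16.5. Both corneal stages lay below E10.5 and overlapped with each other. *Pttg1* was lower by a log2 fold change of -0.45 (SE 0.13, adjusted p 0.013) by E14.5 and -0.39 (SE 0.13, adjusted p 0.0211) by E16.5, and 76.3% of its E10.5 level was left. From E14.5 to E16.5 its value was 0.06 (SE 0.13, adjusted p 0.75), and with library totals in place of TMM it was -0.10. At E10.5 its mean level (27.0 FPKM) was close to that of *Espl1* (21.7 FPKM), and at E16.5 the levels were 18.2 and 4.03 FPKM. *Cdc20* overlaps *Elovl1* in the annotation.

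The 4 subunits of the chromosomal passenger complex, which corrects wrong attachments and later directs the cut between daughter cells, fell together, with log2 fold changes of -2.67 to -2.03 at E16.5. *Aurkb*, its kinase, stood at 48.62, 50.98 and 48.24 FPKM, then 18.4, 28.69 and 29.09, then 9.38, 9.28 and 11.25. *Birc5*, which encodes survivin, went from 118.78, 125.62 and 126.78 through 47.96, 62.81 and 58.29 to 20.14, 18.9 and 23.61 FPKM. *Cdca8*, which encodes borealin, stood at 89.18, 87.58 and 88.22, then 24.49, 41.84 and 41.31, then 10.98, 12.68 and 13.88 FPKM. The stages were apart in all 3 genes, and E14.5 replicate 1 was the lowest of its stage in each. Their log2 fold changes at E16.5 were -2.16 (SE 0.17, adjusted p 1.17e-06), -2.03 (SE 0.10, adjusted p 1.06e-07) and -2.67 (SE 0.19, adjusted p 6.75e-07). The scaffold subunit *Incenp* was at -2.09. For *Birc5* the log2 ratio of mean FPKM was -2.57, a larger fall than the -2.03 from counts. The cause of this gap was not tested.

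The 5 genes of the central spindle and cytokinesis, the cutting of the cell, had the smallest falls: the median log2 fold change was -0.52 at E14.5 and -1.49 at E16.5. All 5 were called at E16.5 and none at E14.5. *Prc1*, which bundles the microtubules of the central spindle, stood at 46.31, 44.08 and 50.85 FPKM in the E10.5 samples, at 31.77, 37.67 and 31.93 in the E14.5 samples and at 13.8, 14.69 and 16.73 in those of E16.5, a log2 fold change of -1.49 (SE 0.10, adjusted p 5.68e-07). *Kif23*, the motor of the centralspindlin complex, went from 33.85, 32.51 and 34.27 through 18.99, 26.15 and 25.68 to 11.88, 11.62 and 14.2 FPKM. *Anln*, which encodes anillin, a scaffold of the contractile ring, went from 16.82, 16.78 and 18.18 through 14.52, 15.97 and 14 to 5.75, 7.05 and 7.72 FPKM. After *Pttg1*, *Kif23* and *Anln* had the smallest falls of the 48 genes at E16.5, -1.27 (SE 0.13, adjusted p 7.8e-06) and -1.19 (SE 0.11, adjusted p 3.67e-06). *Ect2*, which activates the small GTPase RhoA at the site of the cut, fell by 1.85 and *Racgap1*, the other centralspindlin subunit, by 1.56 on the log2 scale. The annotation has *Prc1* overlapping *Rccd1* along nearly its whole length, and *Anln* overlapping 9530077C05Rik.

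The 7 genes of chromosome condensation and structure were called lower at E16.5, with a median of -2.15 and a wider spread. *Top2a*, the topoisomerase that untangles sister chromatids, had 155.02, 150.55 and 174.61 FPKM in the E10.5 samples, 63.57, 98.79 and 89.9 in the E14.5 samples and 23.08, 25.91 and 29.59 in those of E16.5, a log2 fold change of -2.46 (SE 0.17, adjusted p 5.26e-07). *Mki67*, whose product Ki-67 coats mitotic chromosomes and is widely used to stain cycling cells, stood at 73.03, 68.31 and 82.4, then 38.76, 52.37 and 48.38, then 12.52, 15.46 and 17.5 FPKM, a log2 fold change of -2.15 (SE 0.15, adjusted p 7.29e-07). *Smc2*, an ATPase of the condensin ring, stood at 38.65, 38.4 and 43.75, then 25.8, 34.74 and 28.11, then 10.75, 12.21 and 12.51 FPKM. The 3 stages were apart in each of these genes. The ring subunits *Smc2* and *Smc4*, which condensin I and condensin II share, were at -1.62 (SE 0.12) and -1.52 (SE 0.10). The condensin I subunits *Ncapd2*, *Ncaph* and *Ncapg* were at -2.31 (SE 0.20), -2.28 (SE 0.20) and -1.92 (SE 0.16). *Ncapg* overlaps *Lcorl* in the annotation.

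The later step was compared with the earlier one for each gene as a contrast of the same model. The earlier step spans 4 days and a change of tissue and the later one 2 days within the cornea. In 7 genes the later change was the more negative at an adjusted p under 0.05, and in 0 genes the less negative, where 11.7% and 5.85% of all genes tested differed in these directions. The count of 7 of 48 was close to the share over all genes and is no result about the members. The 7 genes were *Cenpf*, *Nusap1*, *Cdc25c*, *Anln*, *Smc2*, *Ccnb2* and *Cenpe*. *Cenpf*, a large kinetochore protein, had changes of -0.43 and then -1.45, a difference of -1.02 (SE 0.18, adjusted p 0.00318). *Nusap1* had values of -0.36 and then -1.35. *Aurka*, *Ube2c* and *Cdca8* had differences of -0.04, -0.03 and -0.05, with SEs of 0.34, 0.20 and 0.31. Over the 48 genes, a median of 41.2% of the log2 change at E16.5 was present at E14.5, from 19.8% in *Anln* to 49.3% in *Aurka*, with *Pttg1* at 116%. The count of 7 depends on the E14.5 samples, which enter both steps: it was 28 without replicate 1, 1 without replicate 2 and 3 without replicate 3. It was 16 with library totals.

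**Figure D4:**
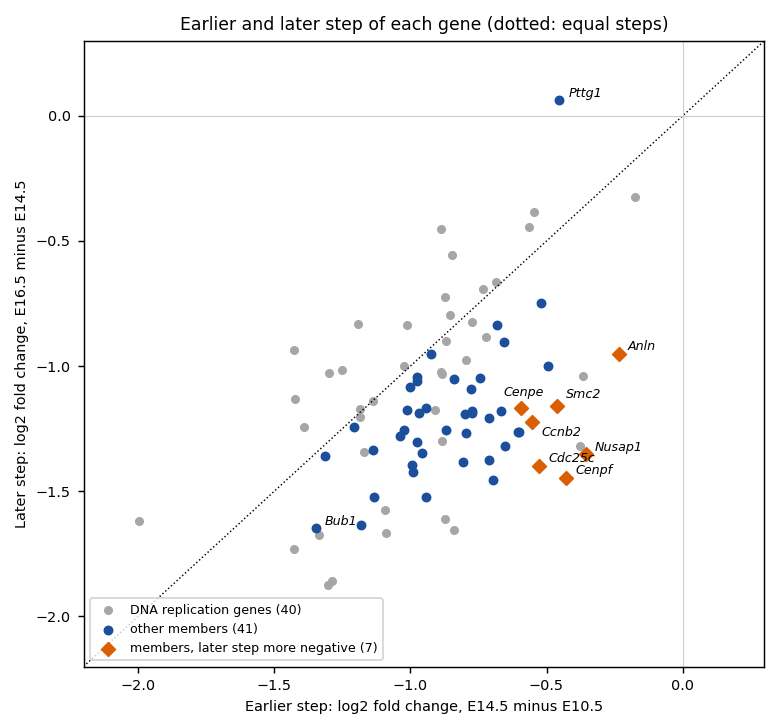
Later step (log2 fold change, E16.5 minus E14.5) against the earlier step (E14.5 minus E10.5) for each gene; both axes use the E14.5 samples, and the dotted line marks equal steps. Orange diamonds are the 7 member genes whose steps differed, blue points the other 41, and grey points 40 DNA replication genes; *Pttg1* alone among the members lies above 0 on the vertical axis.

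Other genes of the same processes fell less evenly. Among 142 further cell cycle genes in 8 lists, 88 were called lower at E16.5 than at E10.5 and 1 higher, with a median of -1.32. The lists include 20 regulators of cell cycle transcription, and the gene called higher, *Rbl2*, is among these. Of all genes tested, 15.4% were called lower and 19.4% higher. In the list of centromere and kinetochore genes 30 of 37 were called lower (median -1.84), in that of spindle and cytokinesis 26 of 33 (median -1.67), in that of centriole duplication 7 of 8 (median -1.56), and among entry and exit regulators 9 of 12 (median -1.59). *Cenpw*, a protein of the inner kinetochore, was at -2.74, *Sgo1*, which guards cohesin at the centromere, at -2.43, *Nek2*, a centrosome kinase, at -2.26 and *Sass6*, the cartwheel protein of new centrioles, at -1.98.

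For the complexes that also act outside mitosis, counts stand beside the 15.4% of all genes tested that were called lower at E16.5. The list of the APC/C core holds 16 genes, not all of them subunits, and 2 were called lower. Its median was -0.28, beside -2.08 for the 4 members that act with the APC/C or downstream of it. *Anapc15*, a small subunit, was at -1.81 and *Ube2s*, an enzyme that extends ubiquitin chains, at -1.17, and *Anapc5* at 0.36 (SE 0.07, adjusted p 0.00101). Of 13 cohesin genes 3 were called lower (median -0.58): *Cdca5*, which encodes sororin (-2.73), *Esco2*, the acetyltransferase of S phase (-1.73), and *Smc1a* (-1.10). *Esco1*, a relative of *Esco2*, was at 0.67 (SE 0.13, adjusted p 0.000829). Of the 3 condensin II genes, *Ncapg2* was called, at -1.52, while *Ncaph2* was at -0.15 (SE 0.07, adjusted p 0.0769).

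Among 20 regulators of cell cycle transcription, 10 were called lower and 1 higher, with a median of -0.94. *Mybl2*, which encodes B-Myb, the activator that joins MuvB at the CHR, was at -2.62 (SE 0.21, adjusted p 1.37e-06), and *Foxm1*, a forkhead activator of late cell cycle genes, at -1.90 (SE 0.16, adjusted p 1.95e-06). *E2f2* was at -2.42. *Rbl2*, which encodes p130, the pocket protein of the repressing DREAM complex, was the one called higher, at 1.69 (SE 0.11, adjusted p 1.03e-06) at E14.5 and 2.14 (SE 0.11, adjusted p 1.35e-07) at E16.5. *Lin37*, a MuvB subunit, was at 0.11 (SE 0.15, adjusted p 0.526).

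The 40 DNA replication genes were close to the mitosis genes in size of change, with 38 called lower at E16.5 and a median of -2.05. Their medians were -0.90 in the earlier step and -1.03 in the later one, where those of the mitosis genes were -0.80 and -1.23. The sets of genes were not tested against each other. *Rrm2*, a subunit of ribonucleotide reductase, had the largest fall, at -3.61. Among genes of G1, 4 of 14 tested were called lower and 3 higher at E16.5, where 15.4% and 19.4% of all genes tested were, with a median of 0.05. *Ccnd1*, cyclin D1, stood at 75.08, 70.98 and 61.6 FPKM in the E10.5 samples, at 3.91, 9.16 and 6.42 in the E14.5 samples and at 2.79, 4.06 and 3.77 in those of E16.5 with log2 fold changes of -3.43 and -4.14 at the later stages. *Cdkn1a*, which encodes the inhibitor p21, stood at 3.33, 3.36 and 3.45, then 4.96, 0.89 and 2.11, then 26.55, 15.33 and 15.31 FPKM. All 3 of its E16.5 samples were above the other 6, and its log2 fold change from E10.5 was 2.64 (SE 0.41, adjusted p 0.000177).

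**Figure D5:**
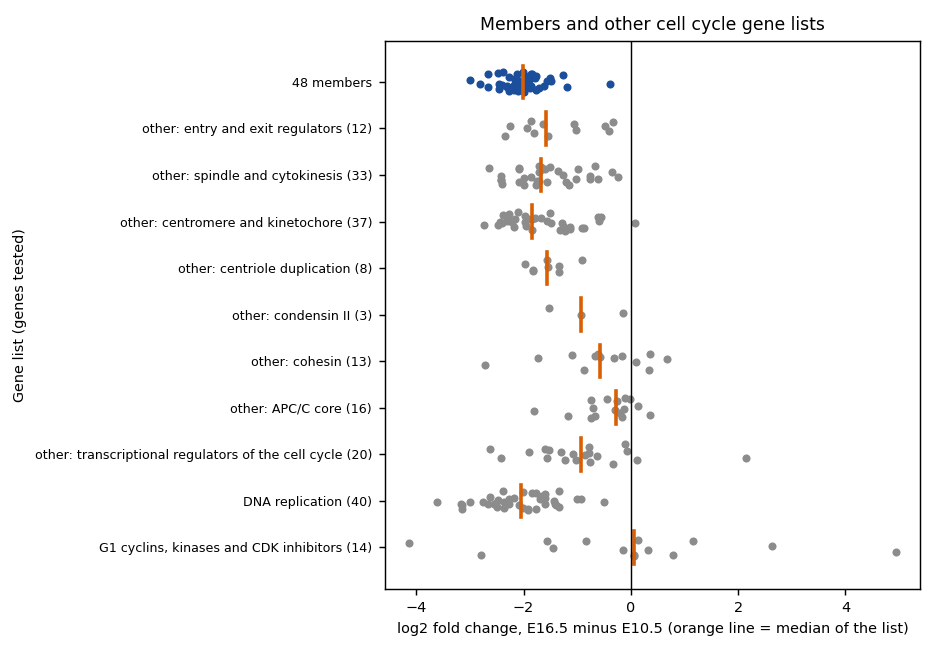
Log2 fold change from E10.5 to E16.5 of each gene (points) in the 48 members (blue) and in 10 other lists (grey); orange lines are the medians of the lists. The members sit around -2.01 with *Pttg1* apart at -0.39, while the lists of the APC/C core (-0.28), cohesin (-0.58) and G1 genes (0.05) have medians nearer to 0.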

How the data were processed

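RNA-Seq of 9 pooled tissue samples was analyzed, 3 per stage. The authors removed adaptor and low-quality reads, then used Bowtie2 for mapping to reference genes and HISAT for mapping to GRCm38; versions are not given in the sources used here. The deposited expected counts are RSEM estimates per gene, not normalized, and the deposited FPKM values are RSEM values scaled to transcript length and library total. Genes missing from a sample's table were taken as 0. Totals of expected counts were 8745161 to 9069023 per sample; genes of low counts also carry counting error. Symbols and positions came from RefSeq genes of GRCm38, which named 19312 of 19369 identifiers.

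Expected counts were rounded and tested with edgeR 4.0.16 (R 4.3.3): filterByExpr by stage, TMM, and 1 quasi-likelihood model of stage over the 9 samples. The SE of a change is its size divided by the square root of its F. Non-overlap of stages was judged on TMM-scaled CPM. The difference between steps was a contrast of the same model with no fold minimum. The code was tested on simulated data. Replicates are pools that the labels call biological replicates, and no 2 samples of a stage held identical values. Alternatives were other scalings, no filter, DESeq2 1.42.0, limma 3.58.1 on log2(FPKM + 1) or log2(FPKM + 0.1), the NOISeq criterion (probability of at least 0.8), a replicate block, leaving out each sample and, added after seeing the data, GC-corrected offsets and the count with no fold minimum without E14.5 replicate 1. The member genes and lists were chosen with earlier results of these data known, so no test was made of a list as a whole. Values in every sample are given for chosen genes of each role and for the 3 largest and 3 smallest falls. Of other lists except cell type markers, only the 3 most negative and 3 most positive genes, *Foxm1*, *Mybl2*, *Ccnd1* and *Cdkn1a* could be named. Motif searches used RefSeq promoters of GRCm38.p6, with the motifs and windows chosen after the results were known.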

Additional observations from a re-analysis of the deposited data

How the results depend on the processing

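All 63 medians of the 48 genes over the alternatives were below 0. At E16.5 against E10.5 the median of -2.01 moved by more than the spread between samples with library totals (-2.16), limma with 0.1 added to FPKM (-2.15) and the NOISeq criterion (-2.15), while 47 genes were called lower under every scaling and tool. At E14.5 against E10.5 the 10 calls ranged from 8 to 14 over scalings, tools and the replicate block, were 2 to 20 with 1 sample left out, and were 46 with no fold minimum. From E14.5 to E16.5 the 42 calls ranged from 38 to 45, and from 37 to 44 with 1 sample left out. The 7 genes with a more negative later step were 16 with library totals, 11 and 12 with limma on log2(FPKM + 1) and log2(FPKM + 0.1), and 1 to 28 with 1 sample left out. The sign of *Pttg1* from E14.5 to E16.5 turned with library totals (-0.10), with limma (-0.12 with either pseudocount and -0.12 over all listed genes) and by the NOISeq criterion (-0.12), and it ranged from -0.046 to 0.13 with 1 sample left out, below 0 without E16.5 replicate 3. The cause of these changes was not tested.

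With the replicate number as a block, 14, 47 and 42 genes were called lower in the 3 comparisons and 9 had the more negative later step, with medians of -0.80, -2.01 and -1.22. The numbers did not pair the samples: deviations of samples with the same number correlated at -0.0164 on average over 9 pairs, against 0.00917 over 18 other pairs, and a sample's best partner in another stage had its own number in 4 of 18 cases. Of 3157 values of single genes under the alternatives, 3022 kept their direction and side of the threshold, 74 lost the call, 55 gained it and 6 turned sign. Each stage has 3 samples, so a stage mean rests on few pools, and at E14.5 on a sample that stands apart.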
